A study of Mus musculus with 6 samples.

Results

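Genes that encode the inducible effectors of inflammation, 10 in all, were followed in haematopoietic progenitors of mice carrying mutant ASXL1. They are the cytokine genes Il1a, Il1b and Tnf, the enzyme genes Irg1 and Ptgs2, the cell surface genes Icam1, Cd40, Cd69 and Cd83, and the stress response gene Ier3. All 10 symbols have a row in the deposited table of 24421 genes. Irg1 and Cd83 were chosen by their counts in these same libraries, which were much lower in the mutant cells, so their difference between genotypes is described here without a test. The other 8 were listed for their function, with earlier results of these data known. Of the 10, 9 had enough counts to be tested. Cd40 did not, and Il1a was kept only through its wild type libraries.

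The cells were bone marrow cells of C57BL/6 mice without lineage markers and with the receptor c-Kit, a gate (LK) that holds stem cells and the progenitors of the myeloid, erythroid and megakaryocyte lines. One group was wild type and the other carried ASXL1-MT-KI, which puts a mutant form of ASXL1 into the genome. ASXL1 is a chromatin regulator gene that is mutated in myeloid neoplasms. The mice were littermates of 8 to 12 weeks, no treatment is named, and each group had 3 RNA sequencing libraries. The labels are silent on which promoter drives the knock-in, in which cells it is active and how many animals made up a library, so p-values measure only the spread between these libraries, which may be technical. Libraries held 40462168 to 47579480 gene counts. Asxl1, whose row may count the knock-in as well as the endogenous gene, was at 165.1 to 176.0 CPM (counts scaled to equal library size) in wild type. It was at 310.2 to 326.6 CPM in ASXL1-MT-KI libraries. Kit, which defines the gate, was at 375.1 to 452.8 and 373.1 to 395.9 CPM.

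As background, these genes belong to the early response of myeloid cells to microbial products and cytokines. Toll-like receptors, the IL-1 receptor and TNF receptors activate NF-kB and AP-1, which switch on short genes from ready promoters. Many of the messages carry AU-rich elements in their 3′ untranslated regions (UTRs), which are bound by factors that speed their decay. In stem and progenitor cells the same cytokines act as signals for emergency myelopoiesis.

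The promoters of 7 of the 10 genes were in the RefSeq table (GRCm38.p6), Irg1 under its current symbol Acod1. Cd83, Cd40 and Cd69 were not matched. A TATA box, searched as TATAAA on both strands, was present in 5 of these 7 windows (250 bases before to 50 bases after the start), against 7.39% of 13537 windows of tested genes. In 4 of the 7, Irg1, Il1a, Il1b and Tnf, it began 28 to 32 bases before the start on the gene's own strand; 1.08% of the windows of tested genes had it between 35 and 25 bases before the start. The fifth, in Icam1, began at base 14 after the listed start. All starts here are those of RefSeq. That of Icam1 lies before the gene span given below, which is from GENCODE M21, and those of Irg1 and Ier3 lie inside theirs. Distances in these genes therefore depend on the start used. The 10-base NF-kB consensus was in 1 of the 7, Ier3, against 10.4% of windows, TGANTCA (the AP-1 site) in 1, Il1a, against 5.17%, and TGACGT (the core of the cAMP response element) in 1, Ptgs2, against 11.2%. These are matches of letters within short windows. The last 100 bases before the start are shown for the 4 genes with a TATA box at that distance and for Ier3, with TATAAA and the NF-kB consensus in capitals.
Irg1, chr14:103046912-103047011, plus strand: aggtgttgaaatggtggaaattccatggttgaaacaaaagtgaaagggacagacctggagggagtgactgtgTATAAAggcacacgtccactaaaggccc
Il1a, chr2:129309973-129310072, minus strand: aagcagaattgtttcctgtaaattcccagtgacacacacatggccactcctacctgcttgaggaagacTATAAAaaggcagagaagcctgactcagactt
Il1b, chr2:129371140-129371239, minus strand: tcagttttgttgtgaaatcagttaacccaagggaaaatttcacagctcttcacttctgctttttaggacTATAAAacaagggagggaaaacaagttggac
Tnf, chr17:35202008-35202107, minus strand: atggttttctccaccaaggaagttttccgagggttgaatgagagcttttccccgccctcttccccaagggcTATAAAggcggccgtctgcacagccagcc
Ier3, chr17:35821613-35821712, plus strand: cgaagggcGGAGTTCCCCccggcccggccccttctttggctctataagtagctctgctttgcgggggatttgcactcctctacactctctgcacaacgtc

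Most of the 10 messages carried an AU-rich element. The AU-rich heptamer TATTTAT, read on the sense strand of the longest annotated 3′ UTR (GENCODE M21), was present in 9 of the 10 and absent from that of Cd83. Among 12698 tested genes with an annotated 3′ UTR, 29.6% had it. At least 3 copies were present in 5 of the 10 (Tnf 8, Ptgs2 6, Ier3 4, Il1a 3 and Il1b 3), against 3.95% of tested genes. The 3′ UTRs were not long, with a median of 1000.5 bases against 1144.5 for tested genes, and held 2.47 heptamers per 1000 bases against 0.287. The densest 25 bases of 4 of them are shown, with the heptamers in capitals, because these genes fell and hold clustered heptamers.
Tnf, chr17:35199682-35199706, minus strand: TATTTATTATTTATTTATTATTTAT
Il1b, chr2:129364807-129364831, minus strand: cttaccTATTTATTTATgTATTTAT
Ptgs2, chr1:150105788-150105812, plus strand: tactgaccaTATTTATTTATTTATg
Ier3, chr17:35822483-35822507, plus strand: tctaattaaTATTTATgTATTTATg

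**Figure D1:**
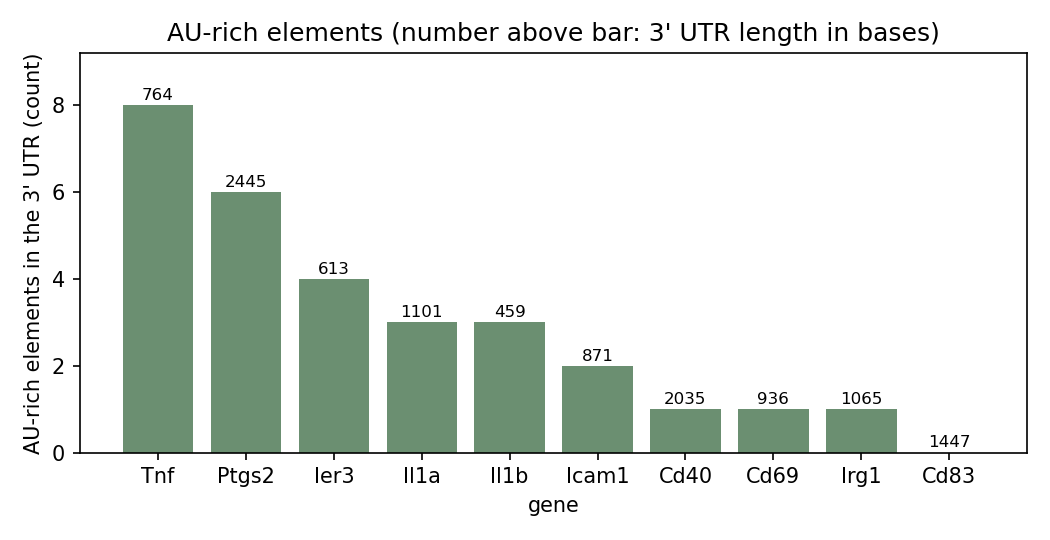
Number of AU-rich heptamers in the longest annotated 3′ UTR of each of the 10 genes (bars), with the length of that UTR in bases above each bar. Tnf has 8 in 764 bases, and Cd83 has 0 in 1447 bases.

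All 10 genes were compact. Their spans ran from 1240 bases (Ier3, on chromosome 17 from 35821684 to 35822923) to 18358 bases (Cd83, on chromosome 13 from 43784775 to 43803132), and all lay under the median of 22297 bases of tested genes with a gene model.

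Most of these genes were lower in ASXL1-MT-KI cells. Of the 8 genes not chosen for their difference, 6 (Il1b, Tnf, Ptgs2, Icam1, Cd69 and Ier3) fell at an adjusted p under 0.05 in edgeR's quasi-likelihood test with Benjamini-Hochberg adjustment over 13548 genes, where 7.69% of all tested genes fell, 8.29% rose and 16% were called in either direction. None of the 8 rose by edgeR, whether by adjusted or unadjusted p, and DESeq2 and limma-voom found no rise either. The falls numbered 6 in DESeq2, where 8.63% of all genes fell and 8.98% rose, and 6 in limma-voom, where 7.76% fell and 8.44% rose. They numbered 5 with the number 3 libraries of both groups left out, where 8.21% of all genes fell and 9.61% rose. With total counts in place of TMM scaling the calls over all genes shifted from 1123 rises and 1042 falls to 1562 rises and 767 falls, and 5 of the 8 genes fell. Of the 8 genes 7 were tested, and in all 7 every ASXL1-MT-KI library lay below every wild type library, as in 17.2% of all tested genes. The 7 include Il1a, which did not pass and was kept only through its wild type libraries. The log2 changes of the 6 that fell ran from -1.08 for Il1b to -0.64 for Ier3, where the median over all tested genes was 0.00. In these bulk libraries, fewer cells of a type and less RNA per cell cannot be told apart.

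**Figure D2:**
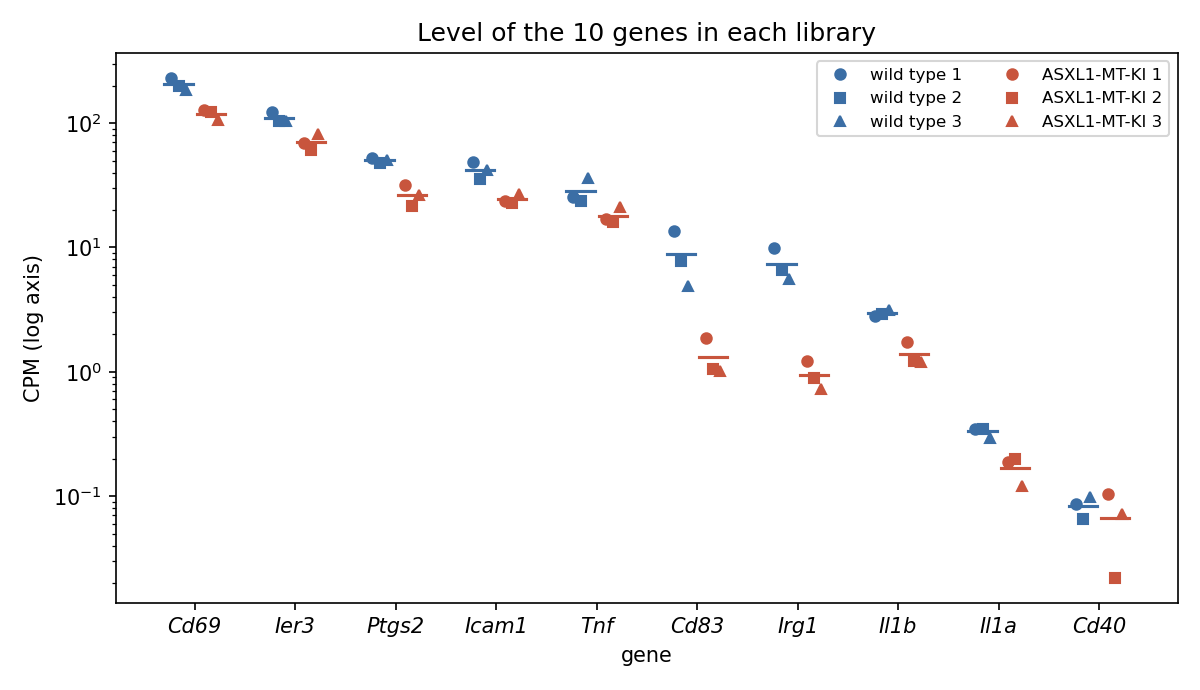
Level of each gene in each library in CPM on a log axis, with wild type in blue, ASXL1-MT-KI in red, a symbol for each replicate number and a line at the group mean. The groups are apart in 9 genes and overlap in Cd40, which is near the bottom of the axis. Of the 9, Irg1 and Cd83 were chosen for their falls, and Il1a was kept for testing only through its wild type libraries.

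Levels between genes were compared per kilobase of exon (RPKM). In wild type cells Ier3 stood highest, at 97.7 ± 9.01 RPKM (SD, n = 3), above 96.9% of tested genes. Cd69 followed at 31.4 ± 3.57 RPKM, Tnf at 17.4 ± 3.99 RPKM, Ptgs2 at 11.0 ± 0.542 RPKM and Icam1 at 9.59 ± 1.47 RPKM. The libraries of Ptgs2 and Icam1 overlapped, as did those of Cd83 (3.41 ± 1.73 RPKM) and Irg1 (2.80 ± 0.856 RPKM). Il1b was at 1.55 ± 0.0980 RPKM, Il1a at 0.168 ± 0.0155 RPKM and Cd40 at 0.0246 ± 0.00494 RPKM. All other neighbours in this order were apart in every library. In ASXL1-MT-KI cells the order of the means was the same except that Il1b, at 0.729 ± 0.163 RPKM, came before Cd83, at 0.512 ± 0.188 RPKM, and Irg1, at 0.361 ± 0.0986 RPKM. There the libraries of Il1b and Cd83 overlapped, as did those of Cd83 and Irg1 and those of Ptgs2 and Icam1.

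Among the cytokines, Il1b encodes the secreted form of IL-1 that needs cleavage by caspase 1 and lies on chromosome 2 from 129364570 to 129371139 in mm10. Its wild type libraries held 2.79, 2.90 and 3.15 CPM, and its ASXL1-MT-KI libraries 1.75, 1.22 and 1.21 CPM. The highest mutant library was well below the lowest wild type library, and Il1b fell 2.11-fold (log2 change -1.08 with SE 0.19, adjusted p = 0.00524 by edgeR). Il1a, the neighbouring gene whose product acts without cleavage, is on chromosome 2 from 129299610 to 129309972. It was close to the limit of detection, with 16, 16 and 12 counts in wild type and 9, 9 and 5 in ASXL1-MT-KI libraries. The groups did not overlap, but the difference did not pass (log2 change -0.95 with SE 0.35, adjusted p = 0.103 by edgeR, and 0.0845 to 0.338 over its alternatives). Its ratio of summed counts was 0.514. Since Il1a was kept only through its wild type libraries, neither this ratio nor the lack of overlap can serve as support for a fall. Both genes share bases with opposite-strand transcripts in the annotation (25 for Il1b, 222 for Il1a), and these libraries do not mark strand. The partner of Il1b, Il1bos, had 21 to 32 counts in wild type and 17 to 40 in ASXL1-MT-KI libraries, and that of Il1a, Gm14023, had 7 to 14 and 7 to 8.

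Tnf, the gene of tumour necrosis factor, lies on chromosome 17 from 35199381 to 35202007. Its values were 25.6, 23.8 and 35.9 CPM in wild type and 16.9, 15.9 and 21.2 CPM in ASXL1-MT-KI libraries. Replicate 3 was the highest library of both groups, and the groups did not overlap. Tnf fell 1.58-fold (log2 change -0.66 with SE 0.18, adjusted p = 0.0426 by edgeR). This was the weakest of the calls in this fit, which takes no account of replicate numbers. The call did not hold when wild type replicate 1 (adjusted p = 0.0756), ASXL1-MT-KI replicate 1 (0.129) or ASXL1-MT-KI replicate 2 (0.127) was left out. It was also lost with total counts in place of TMM scaling (0.0601) and without the filter on low counts (0.0751). With the replicate number as a block the adjusted p of Tnf was 3.85e-06 by edgeR. Taken within replicate numbers the log2 ratios were -0.61, -0.58 and -0.76.

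The enzyme gene Ptgs2 encodes COX-2, the inducible cyclooxygenase that commits arachidonic acid to prostaglandins (chromosome 1, 150100031 to 150108227). Wild type libraries held 52.4, 47.5 and 50.9 CPM and ASXL1-MT-KI libraries 31.8, 21.4 and 26.6 CPM. Wild type values were tight, mutant values more spread, and the groups were clearly apart. Ptgs2 fell 1.89-fold (log2 change -0.92 with SE 0.13, adjusted p = 0.00267 by edgeR), and the call was lost with the number 3 libraries of both groups left out (adjusted p = 0.0822).

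Irg1, now named Acod1, encodes the mitochondrial enzyme that makes itaconate from cis-aconitate in activated macrophages (chromosome 14, 103046977 to 103056573). It had 453, 300 and 227 counts in wild type and 59, 40 and 30 in ASXL1-MT-KI libraries, or 9.87, 6.54 and 5.59 against 1.23, 0.885 and 0.723 CPM. Every mutant library was far below every wild type library, which the choice of Irg1 by these counts favours. The fitted level was 7.69-fold lower, the fourth largest fall of 11748 tested genes with a mean of at least 1 CPM, which is how Irg1 came to be included. Within replicate numbers the log2 ratios were -3.01, -2.89 and -2.95, close to one another although the level itself differed between numbers.

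Cd83, the other gene taken for its fall, encodes a surface protein of activated dendritic cells and B cells that stabilises MHC class II and CD86. It had 625, 359 and 198 counts in wild type and 90, 48 and 42 in ASXL1-MT-KI libraries, or 13.6, 7.83 and 4.88 against 1.88, 1.06 and 1.01 CPM. Its wild type libraries spread more than those of any other of the 10 genes, with a highest to lowest ratio of 2.79. The groups did not overlap, which the choice of Cd83 for its fall favours. The fitted level was 6.62-fold lower, the eighth largest fall by the same ranking, and the log2 change ran from -3.08 to -2.26 when 1 library was left out. By distance between centred log2 values over the 6 libraries, Irg1 was the nearest of 11747 genes to Cd83, and Cd83 was the nearest but 1 to Irg1 (rank 2). The distance includes the difference between genotypes by which both were chosen.

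The adhesion and activation genes were lower by less. Icam1, the ligand of the leukocyte integrins LFA-1 and Mac-1 (chromosome 9, 21015985 to 21028817), was at 48.2, 35.4 and 41.7 CPM in wild type and 23.8, 22.6 and 26.8 CPM in ASXL1-MT-KI libraries. It fell 1.71-fold (log2 change -0.78 with SE 0.11, adjusted p = 0.0025 by edgeR). An antisense transcript overlaps 511 of its exon bases in the annotation. Cd69, an early activation antigen that retains cells in tissue by binding the receptor S1PR1 (chromosome 6, 129267325 to 129275436), had the highest CPM of the 10. It was at 230.5, 197.4 and 185.8 CPM in wild type and 127.0, 123.3 and 106.2 CPM in ASXL1-MT-KI libraries. The gap between groups exceeded the spread within either, and Cd69 fell 1.72-fold (log2 change -0.78 with SE 0.093, adjusted p = 0.0011 by edgeR).

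Cd40, the receptor for the T cell ligand CD40L on antigen-presenting cells (chromosome 2, 165055627 to 165072948), was barely detected. It had 4, 3 and 4 counts in wild type and 5, 1 and 3 in ASXL1-MT-KI libraries. The groups overlapped, and the ratio of summed counts was 0.804 with a 95% interval of 0.294 to 2.13 that covers counting error only. The interval holds ratios of the size seen in the 6 genes that fell.

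Ier3 encodes a small regulator of cell death and ERK signalling that is induced by NF-kB and growth factors. It was at 122.3, 104.7 and 104.6 CPM in wild type and 69.4, 60.6 and 82.3 CPM in ASXL1-MT-KI libraries. The groups did not overlap, and Ier3 fell 1.56-fold (log2 change -0.64 with SE 0.11, adjusted p = 0.00825 by edgeR). Replicate 3 had the smallest within-number difference of any tested gene of the set, at -0.35, against -0.82 and -0.79 in replicates 1 and 2.

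**Figure D3:**
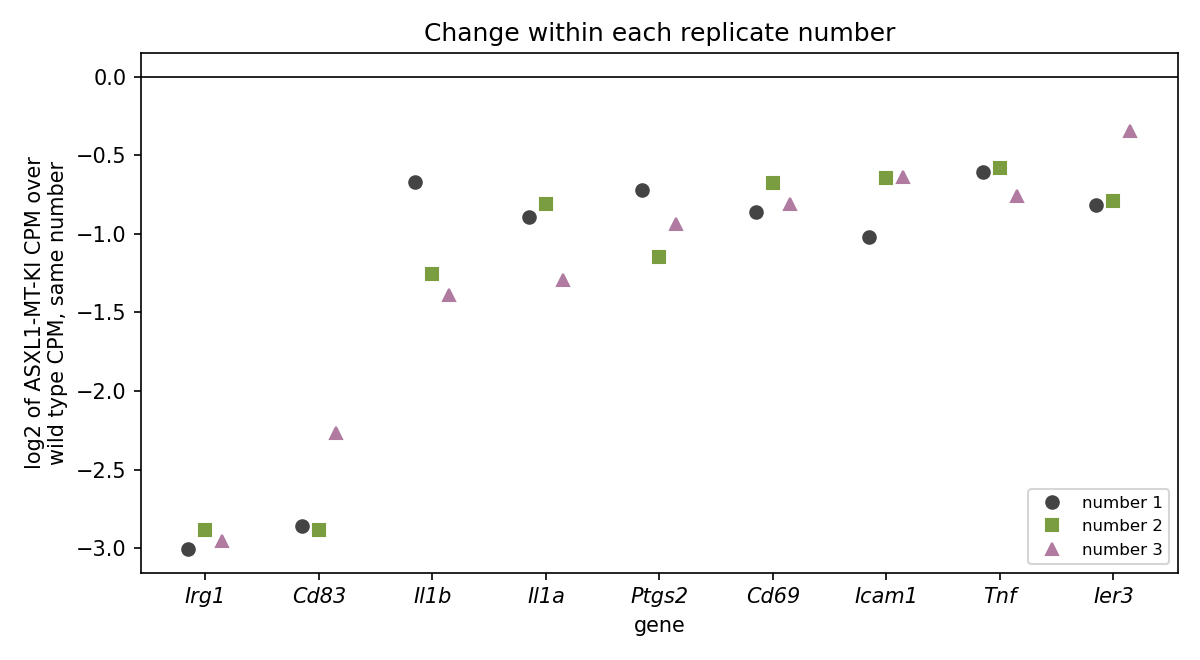
The log2 ratio of ASXL1-MT-KI to wild type CPM within each replicate number, for the 9 tested genes in order of their fitted fold change. Every point lies below 0, from -3.01 for Irg1 in number 1 to -0.35 for Ier3 in number 3. Irg1 and Cd83 were chosen for their falls, and Il1a was kept for testing only through its wild type libraries.

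The genes whose profile over the 6 libraries was nearest to the median profile of the 9 tested genes were Tsc22d1, Marcksl1, F2r, Trp53inp2 and Pim1, at distances of 0.112 to 0.149 (log2 scale) among 11740 genes. Tsc22d1, a transcription regulator gene, was at 234.4 to 273.2 CPM in wild type and 137.1 to 151.5 CPM in ASXL1-MT-KI libraries. Nearest to Cd83 outside the set were the integrin gene Itga3 (0.560), Rgs16, a regulator of G protein signalling (0.654), and the thrombospondin gene Thbs1 (0.701). Nearest to Irg1 were Rgs16 (0.467), Itga3 (0.567) and Ctla4 (0.710). Here too the distance includes the difference between genotypes.

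A list without the 10 held 54 other inducible inflammatory genes. Of 43 tested, 24 fell, or 55.8%, where 7.69% of all tested genes fell and 8.29% rose. The log2 change was below 0 in 39, as in 6742 of all 13548 tested genes, and the median was -0.70. Of the 54 genes, 19 were under 1 CPM in every library. With a filter of at least 1 CPM in 3 libraries, 19 of 34 tested fell, with a median of -0.62. In that fit 955 of all genes fell and 1059 rose. No gene of the list rose by edgeR (0 by unadjusted p as well) or by limma-voom. The rises numbered 1 by DESeq2, 2 with the replicate number as a block (29 falls) and 1 with the number 3 libraries left out (26 falls). Of all genes, 8.98%, 16.7% and 9.61% rose in these fits. The share of all genes that fell was 13.8% with the block and 8.21% without the number 3 libraries. Pde4b, a cAMP phosphodiesterase gene, was at 307.6, 317.3 and 367.7 CPM in wild type and 158.3, 129.7 and 132.9 CPM in ASXL1-MT-KI libraries (log2 change -1.24 with SE 0.093, adjusted p = 0.000142 by edgeR). The cytokine gene Lif fell from 15.5 ± 2.71 to 5.13 ± 0.850 CPM (SD, n = 3), the neutrophil chemokine gene Cxcl2 from 36.4 ± 3.57 to 15.3 ± 2.56 CPM, Clec4e, the receptor Mincle, from 34.9 ± 4.34 to 11.0 ± 2.30 CPM, and the NF-kB inhibitor gene Nfkbie from 31.8 ± 4.66 to 16.6 ± 0.629 CPM. Other members of the list did not pass. Sod2, Ccl3 and Tnfaip2, chosen after their values were seen, had log2 changes of -0.02, -0.09 and 0.34 (edgeR adjusted p = 0.857, 0.551 and 0.181). The falls numbered 15 when wild type replicate 1 was left out.

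**Figure D4:**
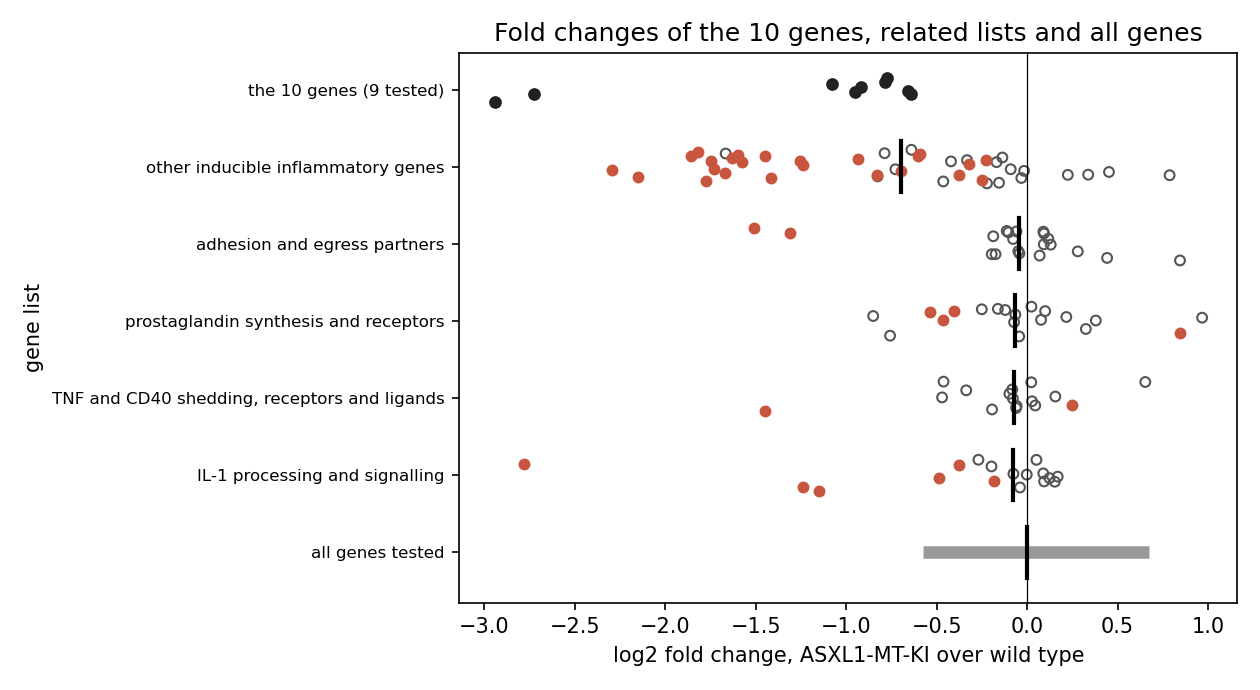
Log2 fold changes of the 9 tested genes (black), of related lists (red where the adjusted p is under 0.05, open otherwise) and of all tested genes (grey bar from percentile 5 to 95, -0.57 to 0.67). Vertical ticks mark medians, at -0.70 for other inducible genes and from -0.08 to -0.05 for the lists of partner genes; none is drawn for the 9 genes, since Irg1 and Cd83 were chosen for their low values.

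Partner genes are those that process, receive or transmit the products of the 10. Of 72 tested partner genes in 4 lists, 12 fell (16.7%) and 2 rose (2.78%), with a median of -0.06. Of all tested genes 7.69% fell and 8.29% rose. With the replicate number as a block 16 fell and 7 rose, where 13.8% of all genes fell and 16.7% rose. Leaving out ASXL1-MT-KI replicate 2 gave 8 falls and no rise. In the IL-1 list 6 of 17 fell and none rose by edgeR (0 rises by unadjusted p, DESeq2 or limma-voom, 2 with the block). Without wild type replicate 3 the list had 3 falls and 1 rise. The decoy receptor gene Il1r2, whose product binds IL-1 without signalling, had the largest difference, with 12.5, 11.4 and 11.8 CPM in wild type against 3.21, 0.818 and 1.11 CPM in ASXL1-MT-KI libraries (log2 change -2.78 with SE 0.47, adjusted p = 0.0142 by edgeR). The Il1r2 call was lost with the block (adjusted p = 0.0592), with the number 3 libraries left out (0.153) and when either replicate 3 was left out (0.0614 for wild type, 0.0584 for ASXL1-MT-KI), and the log2 change was -3.63 without ASXL1-MT-KI replicate 1. The signalling receptor gene Il1r1 fell from 22.3 ± 1.07 to 15.9 ± 1.12 CPM and the kinase gene Irak2 from 22.8, 21.5 and 21.6 to 17.1, 17.0 and 16.5 CPM. The inflammasome sensor gene Nlrp3 fell from 90.1 ± 7.85 to 38.1 ± 10.2 CPM, a call lost without wild type replicate 3 (adjusted p = 0.0574), and Il18 from 1.16 ± 0.167 to 0.524 ± 0.0897 CPM, lost without ASXL1-MT-KI replicate 2 (0.0535). Some partners are named for their role and not for a call. Casp1, the protease that cleaves pro-IL-1 beta, had means of 35.0 ± 2.60 CPM in wild type and 35.0 ± 3.59 CPM in ASXL1-MT-KI libraries (log2 change -0.00 with SE 0.087, edgeR adjusted p = 0.989).

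In the TNF and CD40 list 1 of 16 fell and 1 rose. These are 6.25% each, near the 7.69% and 8.29% of all tested genes. Cd86, a costimulatory ligand gene, had 3.73, 2.73 and 2.61 CPM in wild type and 1.19, 0.995 and 1.13 CPM in ASXL1-MT-KI libraries, a fall (log2 change -1.45 with SE 0.20, adjusted p = 0.00152 by edgeR). Tradd, an adaptor of TNF receptor 1, rose by 0.25, and lost its call on leaving out any library but wild type replicate 3 (adjusted p up to 0.140). The TNF receptor genes Tnfrsf1a and Tnfrsf1b had log2 changes of -0.06 ± 0.047 and -0.08 ± 0.061 and Adam17, the sheddase of TNF, of 0.03 ± 0.052, none past the threshold.

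In the prostaglandin list 3 of 19 fell (15.8%) and 1 rose (5.26%), against 7.69% and 8.29% of all tested genes. With the block 5 fell and 2 rose, where 13.8% and 16.7% of all genes did. Ptger4, a receptor for prostaglandin E2, fell from 32.3 ± 1.74 to 22.2 ± 1.04 CPM (adjusted p = 0.00121 in edgeR). Pla2g4a, the phospholipase gene that frees arachidonic acid, fell from 46.9 ± 3.89 to 35.4 ± 3.69 CPM, a call lost when wild type replicate 1 (adjusted p = 0.0578) or ASXL1-MT-KI replicate 2 (0.0532) was left out. Ptger3 fell by 0.46 on the log2 scale, lost when any of wild type replicate 2 and ASXL1-MT-KI replicates 1 and 2 was left out (adjusted p up to 0.0754). Ptgir, the prostacyclin receptor gene, rose by 0.84, lost when any of wild type replicates 1 and 2 and ASXL1-MT-KI replicates 2 and 3 was left out (adjusted p up to 0.0940). Leaving out wild type replicate 1 or 2 gave 2 falls and no rise, and leaving out ASXL1-MT-KI replicate 2 gave 1 fall. Ptgs1, the constitutive paralog of Ptgs2, had means of 34.3 ± 3.87 and 34.9 ± 4.81 CPM (log2 change 0.02 with SE 0.11, edgeR adjusted p = 0.917).

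In the adhesion and egress list 2 of 20 fell (10%) and none rose by edgeR or limma-voom. By edgeR 7.69% of all tested genes fell and 8.29% rose. In this list 1 rose by DESeq2, 1 by unadjusted p and 2 with the block (3 falls). S1pr1, the egress receptor that CD69 binds, was at 16.9, 17.1 and 18.3 CPM in wild type and 6.17, 5.62 and 6.58 CPM in ASXL1-MT-KI libraries and fell (log2 change -1.51 with SE 0.091, adjusted p = 2.25e-05 by edgeR), and Cytip, a regulator of integrin adhesion, from 128.1, 121.3 and 119.3 to 60.2, 41.8 and 46.4 CPM. The LFA-1 genes Itgal and Itgb2, whose product binds ICAM-1, had log2 changes of -0.20 and 0.44 and did not pass (adjusted p = 0.112 and 0.134).

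Cell types that express the 10 genes were followed by marker lists, and the part of such cells in the differences was not tested. For every list from here on, the shares over all tested genes were 7.69% fallen and 8.29% risen by edgeR. With the block these shares were 13.8% and 16.7%. B lymphoid genes, a list of 18 with 14 tested, had 4 falls (H2-Ob, Cd79a, Vpreb1 and Igll1) and 1 rise (Cd24a), and a median of -0.74. With the block 7 fell and 2 rose. With a filter of at least 1 CPM in 3 libraries only 5 were tested, of which 2 fell and 1 rose, with a median of -0.56. In that fit 955 of all genes fell and 1059 rose. The calls numbered 3 when replicate 1 of either group was left out and 9 when ASXL1-MT-KI replicate 3 was. Their summed level was 389.5 to 447.7 CPM in wild type and 466.9 to 524.6 CPM in ASXL1-MT-KI libraries, most of it from Cd24a. The defining gene Ms4a1 was at 0 in 5 of 6 libraries, and 9 genes of the list were under 1 CPM in every library. Monocyte and macrophage genes, 19 of 22 tested, had 2 rises and 1 fall with a median of 0.28, 8 rises and 2 falls with the block, and 6 calls when wild type replicate 3 was left out. Their sum was 1287.9 to 1321.0 CPM in wild type and 1375.7 to 1527.7 CPM in ASXL1-MT-KI libraries. The macrophage genes C1qa, C1qb and Vsig4 reached at most 1.42, 1.25 and 0.0964 CPM in any library, so other genes of the list carried the sum. Of the 22 genes, 4 were under 1 CPM in every library. Dendritic cell genes, 14 of 18 tested, had 1 rise and 2 falls (3 and 2 with the block). Their sums were 634.1 to 686.5 and 633.3 to 657.9 CPM. Siglech and Cd209a, at most 0.283 and 0.188 CPM, were among the 6 of 18 genes under 1 CPM in every library. Other genes of the list carried the sums.

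T and NK genes, 9 of 22 tested, had 1 fall (2 falls and 1 rise with the block). Their sums were 175.9 to 196.6 and 155.4 to 206.0 CPM. Of the 22 genes, 15 were under 1 CPM in every library, with Cd3g and Cd8b1 at 0 throughout. Other genes of the list carried the sums. Leaving out replicate 3 of wild type gave 3 calls and of ASXL1-MT-KI 2. Mature neutrophil genes, 13 of 16 tested, summed to 171.7 to 276.5 and 192.3 to 248.0 CPM, and none passed by edgeR, DESeq2 or limma-voom (1 by unadjusted p, 7 with the block, 1 on leaving out wild type replicate 2 or 3). Mast cell and basophil genes, 10 of 14 tested, summed to 463.7 to 576.3 and 395.0 to 562.0 CPM, and none passed by edgeR or limma-voom (1 by unadjusted p, 1 by DESeq2, 3 with the block, 2 on leaving out ASXL1-MT-KI replicate 3). Stromal and endothelial genes, 9 of 14 tested, summed to 120.6 to 140.5 and 110.7 to 144.1 CPM, and none passed by edgeR (0 by unadjusted p, DESeq2 or limma-voom, 1 with the block). Genes of the progenitor gate, 9 of 9 tested, had 1 rise (Myb) and 2 falls (Cd34 and Ptprc), sums of 15969.5 to 17719.9 and 16450.5 to 17193.6 CPM, and 1 call when replicate 1 of either group was left out.

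Genes that respond to handling and stress, 17 of 17 tested, had 3 falls (Junb, Ier2 and Ier5), and a median of -0.22. With the block 6 fell and 1 rose. They had 1 call when either replicate 2 or the wild type replicate 1 was left out and 6 when wild type replicate 3 was. With the number 3 libraries of both groups left out 9 fell and none rose, with a median of -0.33. In that fit 8.21% of all genes fell and 9.61% rose. By DESeq2 5 of the list fell and none rose, where 8.63% of all genes fell and 8.98% rose. Their sums overlapped, at 9582.6 to 13283.1 CPM in wild type and 9074.6 to 11142.1 CPM in ASXL1-MT-KI, and were lowest in replicate 3 of both groups. Irg1, Cd83, Il1a and Cd69 were also lowest in replicate 3 of both groups, and Tnf was highest there. Whether handling has a part in the differences was not tested.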

How the data were processed

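RNA of LK cells was sequenced as paired ends on an Illumina HiSeq instrument from a kit that does not mark strand, per the labels' protocols. The authors deposited raw counts per gene symbol, not normalized, from reads aligned with HISAT2 2.0.4 to mm10, per the submitters' processing notes; counting tool and annotation: not given in the sources used here. Of 24421 rows, 6240 are 0 throughout. Columns were matched to samples by genotype and number.

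The 10 genes, the gene lists and the tests were chosen with earlier results of these data known; the AU-rich heptamer and the range of TATA box distances were added after seeing the data. Genes were filtered with filterByExpr (minimum 10 counts), scaled by TMM and tested with a robust quasi-likelihood F test in edgeR 4.0.16 (R 4.3.3), genotype as the only term, on all 6 libraries. Adjusted p-values cover all 13548 tested genes, with a threshold of 0.05. SE is the absolute log2 fold change over the root of the F statistic. Named genes were the 10, up to 5 called genes per list by p, and the nearest profiles of log2(CPM + 0.5). Outside this rule, uncalled partner genes were named for their role, along with genes of the marker lists, Asxl1 and Kit. Sod2, Ccl3 and Tnfaip2 were chosen after their values were seen. Alternatives, 14 in all, included DESeq2 1.42.0, limma-voom 3.58.1, other scalings and filters, and libraries left out. Replicates differed by more than sampling noise. Labels do not say that equal numbers share a litter. Deviations from group means, across genes, correlated between equal numbers at 0.238, 0.144 and 0.361 (wild type 2 with ASXL1-MT-KI 1 at 0.157). Numbers were therefore taken to pair the libraries. The main fit leaves this pairing out, and its p-values, SEs and calls are those reported unless another fit is named. The fit with the replicate number as a block is 1 of the alternatives. The procedure was tested on simulated counts. Figures used matplotlib 3.10.9.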

Additional observations from a re-analysis of the deposited data

How the results depend on the processing

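Of the 8 genes not chosen for their difference, 5 or 6 fell under each of the 14 alternatives, and none of the 6 that fell changed direction. With the replicate block 4132 genes were called in all, against 2165, and 23 partner genes, against 14. The block changed no call among these 8 genes. The 6 falls then had adjusted p-values from 4.11e-09 (Cd69) to 0.0231 (Ier3) by edgeR. Among the called partners named the block ended the call of Il1r2. Without 1 library the genes called numbered 1128 to 2257 (the lowest, 1128, on leaving out wild type replicate 1, then 1143 and 1388 on leaving out ASXL1-MT-KI replicates 2 and 1), the partner genes 8 to 13 and the other inducible genes 15 to 26. With total counts the median over all genes moved from 0.00 to 0.05 on the log2 scale. Depth limits Cd40 and Il1a, and the causes of these shifts were not tested.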
